A study of Mus musculus with 2 samples.

Results

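Synaptotagmins are membrane proteins of secretory vesicles and other compartments that carry a pair of C2 domains, folds whose loops can bind calcium and acidic lipids. The 10 synaptotagmin genes described here, Syt1, Syt2, Syt3, Syt4, Syt5, Syt7, Syt11, Syt12, Syt13 and Syt17, were taken by symbol from 55536 gene entries. They were chosen with earlier results of these data known, and the part of level in that choice is not known. They are 10 of the 17 genes whose symbol is Syt followed by a number. The other 7 (Syt6, Syt8, Syt9, Syt10, Syt14, Syt15 and Syt16) are used for comparison.

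RNA came from the left cerebral cortex of 2 male adults of the mouse strain B6CASTF1/J, between 8 and 10 months old. The strain is a first-generation hybrid of B6 and Cast. The labels give no treatment and 1 group, so no condition was compared, and the libraries are called replicate 1 (animal 2) and replicate 2 (animal 4). Each library was made from 300 ng of total RNA after ribosomal RNA had been reduced and ERCC spike-in RNAs mixed in. The donor label is the same for both libraries, and only the animal numbers mark them as separate mice.

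In the best known member, Syt1, calcium binding to the C2 domains couples the arrival of an action potential to fast fusion of synaptic vesicles, through the SNARE proteins and complexin. Syt2 does the same work at other synapses, among them those of fast-spiking inhibitory neurons. Syt7 has a higher calcium affinity and is known for asynchronous release and facilitation, whereas Syt4 and Syt11 lack a full set of calcium-binding residues in their C2 domains.

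What sets the members apart in sequence can be read from the loops that bind calcium in the first C2 domain, C2A. In Syt1, 5 aspartates hold the calcium ions there. The stretches below, each of 39 bases, hold the third, the fourth and the fifth of those aspartate codons in Syt1 and the codons aligned with them in the other genes, marked by capitals. They are read 5′ to 3′ from the GENCODE transcript that led each gene. Syt4 was aligned as well, and its stretch is not printed.
Syt1 C2A: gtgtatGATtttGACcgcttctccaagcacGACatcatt
Syt2 C2A: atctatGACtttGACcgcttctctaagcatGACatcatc
Syt3 C2A: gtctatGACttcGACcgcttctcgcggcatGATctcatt
Syt5 C2A: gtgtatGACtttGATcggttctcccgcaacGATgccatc
Syt7 C2A: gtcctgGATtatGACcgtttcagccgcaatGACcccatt
Syt11 C2A: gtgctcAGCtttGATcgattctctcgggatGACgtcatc
Syt13 C2A: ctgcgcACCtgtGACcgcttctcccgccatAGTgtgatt
Syt17 C2A: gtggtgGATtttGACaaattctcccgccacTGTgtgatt
Syt12 C2A: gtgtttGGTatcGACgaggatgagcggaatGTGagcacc

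Syt1, Syt2, Syt3, Syt5 and Syt7 had an aspartate codon (GAT or GAC) at all 5 aligned C2A positions. Syt11 had 4 of 5, with the serine codon AGC at the third position. Syt4 had 3 of 5, again with a serine codon at the third position, Syt13 had 3, Syt17 had 2 and Syt12 had 1. The matching stretch of the second C2 domain, C2B, is shown for both genes with the most and both with the fewest aspartate codons, and for Syt2 beside Syt1, with the capitals as above.
Syt1 C2B: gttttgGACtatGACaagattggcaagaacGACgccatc
Syt7 C2B: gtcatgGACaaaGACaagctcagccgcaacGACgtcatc
Syt2 C2B: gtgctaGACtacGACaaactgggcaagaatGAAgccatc
Syt12 C2B: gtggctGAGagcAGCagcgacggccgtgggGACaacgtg
Syt13 C2B: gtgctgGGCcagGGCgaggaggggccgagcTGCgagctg

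Syt1 and Syt7 had an aspartate codon at all 5 C2B positions. Syt2, Syt3 and Syt5 had 4 of 5 and a glutamate codon at the fifth. Syt4, Syt11 and Syt17 had 3, Syt12 had 2 and Syt13 had 1. The count of codons describes the aligned letters and is no measurement of calcium binding. By the translated coding sequences, Syt1 and Syt2 were the most alike of the 45 pairs, with 78.7% identity over 413 aligned codons. Syt4 and Syt11 shared 54.4%, and Syt7 and Syt13, the least alike, shared 23.5%. The gene structures fell into the same pairs: Syt1, Syt2 and Syt5 each had 8 coding exons, and from the fifth last to the second last these had the same lengths in all 3 genes, 168, 168, 118 and 134 bases. Syt4 and Syt11 each had 4 coding exons.

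All 10 synaptotagmins were detected in both animals, at levels that spanned from 18.0 to 515 TPM (the deposited transcript abundance per length, so that genes can be compared). Values after ± are the SD over the 2 animals (n = 2) throughout. Their TPM summed to 1230 in replicate 1 and 1302 in replicate 2, a mean of 1266 ± 50.8. Syt1 held 40.4% and 41.0% of that sum. The 5 genes with a full set of C2A aspartate codons held 64.6% and 66.1% of it, with 795 and 860 TPM, and the 5 genes with fewer held 35.4% and 33.9%, with 435 and 442 TPM. Most of the first sum was Syt1, at 497 and 534 TPM. Without Syt1, the other genes with a full set summed to less than the 5 with fewer. In bulk tissue, fewer cells of a type and less RNA per cell cannot be told apart.

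The dissection carried the defining markers of cortex. The 5 excitatory markers summed to 1549 and 1616 TPM and the 7 inhibitory ones to 616 and 674, and the 4 pan-neuronal ones to 2395 and 2562. Markers of other cells summed to 300 and 308 TPM for astrocytes, 1411 and 1484 for oligodendrocytes, 77.8 and 84.0 for microglia and 47.0 and 43.97 for endothelium. The 4 cerebellar markers summed to 5.12 and 6.44 TPM, most of it from Neurod1 at 4.76 and 6.10, and Gabra6 was listed at 0. A list of 5 genes typical of striatum summed to 410 and 444 TPM. The libraries differed in the choroid plexus list, which summed to 740 TPM in replicate 1 and 6.51 in replicate 2. All 7 activity-regulated genes (Arc, Egr1, Fos, Fosb, Junb, Npas4 and Nr4a1) were higher in replicate 1, by a median of 1.23 on the log2 scale. Total expected counts were 26925514 and 30143684, of which the 10 synaptotagmins took 80761 and 92781.

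**Figure D1:**
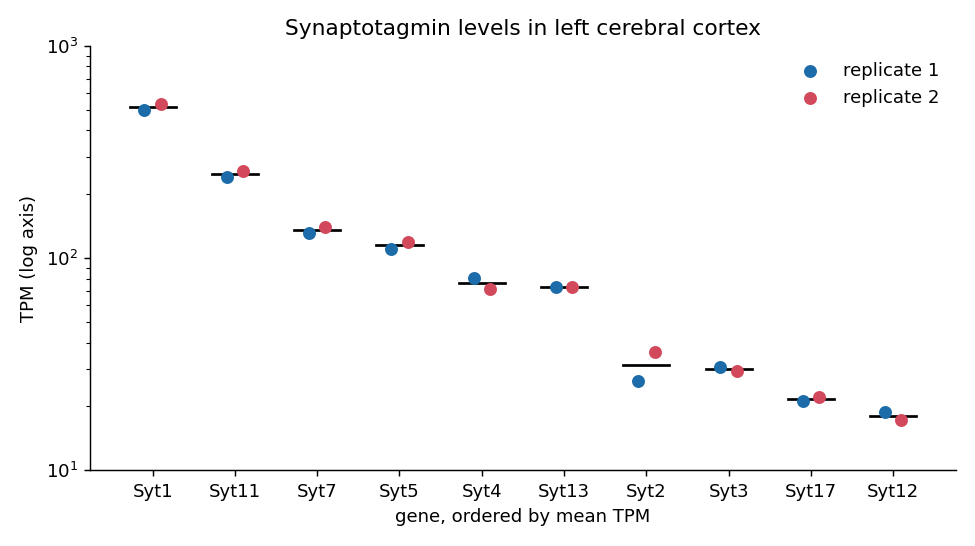
TPM of each synaptotagmin gene (log axis) in left cerebral cortex, with 1 point for each animal and a bar at the mean. Syt1 stands highest at 515 TPM and Syt12 lowest at 18.0 TPM, and the points of Syt2 lie farthest apart for their level.

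Among the sensors of fast release, Syt1 (chromosome 10, 108497650 to 109010982, minus strand, mm10) was far ahead of Syt2. Syt1 was at 497 and 534 TPM in replicates 1 and 2, from 36361 and 42963 expected counts, and took rank 64 of 22028 protein-coding genes by mean TPM. Syt2 (chromosome 1, 134646677 to 134762593, plus strand) was at 26.4 and 36.2 TPM, and took rank 3795. Syt1 was 16.8 ± 2.84 times as high as Syt2 by TPM, and the ranges of the genes lay far apart. With transcripts under 500 bases left out, Syt2 was at 21.3 and 21.6 TPM. Syt1 had no transcript that short, so the quotient is then higher and its spread smaller. Syt5 (chromosome 7, 4539765 to 4547541, minus strand), the closest relative of this pair by sequence among the members, was at 110 and 120 TPM.

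The higher-affinity sensors Syt7 and Syt3 also differed from each other beyond the spread of the animals. Syt7 (chromosome 19, 10389090 to 10453180, plus strand) was at 131 and 141 TPM. Syt3 (chromosome 7, 44384102 to 44400187, plus strand), known for a role in the uptake of glutamate receptors after synaptic activity, was at 30.8 and 29.4 TPM. For each Syt7 transcript, by TPM, there were 3.80 ± 0.00541 of Syt1. That small spread depended on short transcripts. With those under 500 bases left out, Syt7 was at 118 and 120 TPM and Syt1 was unchanged, so the quotient is then higher and its spread larger.

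Of the members with an incomplete set of aspartates, Syt11 was the highest and stood second of all members. Syt11 (chromosome 3, 88744700 to 88775164, minus strand), a regulator of endocytosis, was at 241 and 258 TPM. Syt4, an activity-induced gene whose product lies on dense-core and postsynaptic vesicles, was at 80.8 and 71.4 TPM. Syt11 was thus 3.29 ± 0.444 times as high as Syt4, its closest relative by sequence. Syt13 (chromosome 2, 92915098 to 92956058, plus strand) was at 73.3 TPM in both animals. The lowest members were Syt17 (chromosome 7, 118380717 to 118448222, minus strand), which has no membrane-spanning segment, at 21.3 and 22.1 TPM, and Syt12 (chromosome 19, 4445908 to 4477447, minus strand) at 18.8 and 17.2 TPM, an order that the second deposited quantification turned.

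From high to low, the order by mean TPM was Syt1, Syt11, Syt7, Syt5, Syt4, Syt13, Syt2, Syt3, Syt17 and Syt12. In 7 of the 9 neighbouring pairs the higher gene's lower animal exceeded the lower gene's higher animal. The exceptions were Syt4 with Syt13 and Syt2 with Syt3, whose ranges overlapped. With the transcripts under 500 bases left out, Syt2 came after Syt17 and its range overlapped that of Syt17. The second deposited quantification separated 4 of 9 pairs and, once rescaled over protein-coding genes, 6. It also placed the 4 lowest members in another order: Syt3, Syt2, Syt12 and Syt17, or Syt3, Syt12, Syt2 and Syt17 once rescaled. By that quantification Syt17 was thus lowest, at 22.6 and 25.9 TPM, and Syt12 was at 31.0 and 21.4 TPM, with overlapping ranges.

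The other synaptotagmins added little to the sum. The 10 members held 94.1% of the TPM of all 17 genes in each animal. The members were chosen with earlier results of these data known, and the part of that choice in this share was not tested. Syt16, a relative without calcium-binding residues, was at 36.0 and 38.3 TPM and exceeded 4 members, Syt2, Syt3, Syt17 and Syt12, in both animals. Syt6 followed at 16.2 and 16.2 TPM and Syt14 at 12.1 and 12.4 TPM, each below every member. Syt8 had 0 and 1 counts.

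The proteins with which synaptotagmins work at the synapse were higher as a group. The 17 partner genes (SNARE proteins, complexins, Munc18 and Munc13, SV2 and their like) all passed 1 TPM and summed to 4344 and 4555 TPM. Their highest were Snap25 at 1227 and 1289 TPM, Vamp2 at 435 and 460 TPM and Nsf at 445 and 440 TPM, and Ston2, an adaptor that retrieves synaptotagmin from the plasma membrane, was lowest at 10.1 and 10.4 TPM. Per 100 transcripts of Snap25, the SNARE that Syt1 binds, there were 40.5 and 41.4 of Syt1 by TPM. Per 100 of Vamp2, the vesicle SNARE, there were 114 and 116. The spread of both quotients was small beside the spread of Syt1 per Syt2. The Syt2 part of that spread lay in short transcripts: with those under 500 bases left out, Syt2 was at 21.3 and 21.6 TPM.

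Syt1 had 6 annotated transcripts, of which 2 held at least 10% of the gene. Syt1-201, which encodes the whole protein, held 80.5% and 83.4% of the gene's TPM. Syt1-206, a noncoding transcript of 1113 bases that begins 1871 bases downstream of the first start, held 11.9% and 9.96% of the TPM but 2.91% and 2.40% of the expected counts. By the second quantification Syt1-206 held 16.9% and 16.9% of the TPM. Syt1-202, with the same coding sequence as Syt1-201 and another leader, held 5.70% and 3.95%.

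Nearly all Syt2 counts were assigned to annotated transcripts with a pair of starts 62623 bases apart, and the share of each depended on the unit. The proximal start (134709300), used by Syt2-201, held 69.5% and 53.0% of the TPM in replicates 1 and 2, and 91.8% and 91.5% of the expected counts. The distal start (134646677), used by Syt2-203 and Syt2-204, held 30.0% and 46.6% of the TPM and 8.19% and 8.48% of the counts. The remaining annotated start, that of the noncoding Syt2-202, had 1 expected count in each animal. By counts, then, the animals were alike, and by TPM they were not. Syt2-204 has the same coding sequence as Syt2-201, and held 11.2% and 6.70% of the TPM. Syt2-203 is an incomplete transcript model of 383 bases. It was given 24.7 and 78.2 expected counts, and with these 18.8% and 39.9% of the gene's TPM. With transcripts under 500 bases left out, Syt2 was at 21.3 TPM in replicate 1 and 21.6 in replicate 2, against 26.4 and 36.2 with them.

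The 250 bases before both Syt2 starts are printed because the Syt2 counts were assigned to annotated transcripts with these 2 starts. The starts themselves were not measured. Both are from RefSeq (build GRCm38.p6, plus strand), 5′ to 3′, with each CpG in capitals. The distal one, chr1:134646362-134646611, ends at a RefSeq start slightly upstream of the GENCODE one, and the proximal one, chr1:134709050-134709299, ends at the base before the GENCODE start.
Syt2 distal: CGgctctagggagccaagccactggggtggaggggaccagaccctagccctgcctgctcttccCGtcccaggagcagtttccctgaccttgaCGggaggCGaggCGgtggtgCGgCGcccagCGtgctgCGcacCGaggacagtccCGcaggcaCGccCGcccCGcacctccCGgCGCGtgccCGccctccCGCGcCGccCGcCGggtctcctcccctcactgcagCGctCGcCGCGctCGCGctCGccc
Syt2 proximal: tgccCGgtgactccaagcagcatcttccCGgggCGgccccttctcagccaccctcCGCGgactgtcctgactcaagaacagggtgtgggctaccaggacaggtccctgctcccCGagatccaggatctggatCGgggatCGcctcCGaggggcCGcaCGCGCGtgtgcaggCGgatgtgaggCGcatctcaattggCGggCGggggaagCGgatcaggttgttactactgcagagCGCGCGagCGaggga

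The distal stretch held 30 CpG and 76% G and C, and the proximal one 22 CpG and 66.4%. The median of 32817 RefSeq promoters of the same length was 6 CpG and 52.4%, and 5.95% of them held at least 30 CpG. Before the Syt1 starts there were 8 CpG (upstream start) and 5 CpG (the start of Syt1-206). The Sp1 box GGGCGG, sought on both strands, occurred 3 times in the distal and 2 times in the proximal Syt2 stretch, 1 time before the upstream Syt1 start and 0 times before the other. It was found in 32.7% of all promoters. The letters TATAAA, sought on both strands, occurred in none of these 4 stretches and in 12.4% of all promoters. RefSeq promoters were matched for 4 of the 10 members, Syt1, Syt2, Syt3 and Syt11.

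Syt7 had the most transcripts of the members, 15, of which 10 had expected counts in an animal. They differ mainly in 5 alternative exons between the membrane segment and the C2 domains, all with lengths that are multiples of 3. Syt7-202, with exons 1, 4 and 5, led with 48.5% and 45.3% of the gene's TPM. Syt7-201, with none of the 5, held 16.3% and 14.1%, and Syt7-203, with exons 1, 3, 4 and 5, held 12.6% and 9.69%. Syt7-206, a retained-intron model of 479 bases that does not reach the alternative exons, held 9.68% and 14.6% of the TPM, and 0.933% and 1.49% of the counts.

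Exons 1 and 2 of the 5 are printed because exon 2 carries a stop codon in the reading frame of its transcript, starting at base 20 of the exon (capitals), and exon 1 does not. Both are read from the GENCODE transcripts (mm10, plus strand): exon 1 at chr19:10421757-10421888, of 132 bases, and exon 2 at chr19:10422395-10422517, of 123 bases.
Syt7 exon 1: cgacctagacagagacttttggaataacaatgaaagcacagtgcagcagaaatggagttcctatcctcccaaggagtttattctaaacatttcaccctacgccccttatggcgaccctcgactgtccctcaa
Syt7 exon 2: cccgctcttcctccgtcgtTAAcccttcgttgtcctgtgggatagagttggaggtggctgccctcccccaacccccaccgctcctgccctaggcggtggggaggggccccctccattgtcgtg

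Exons 1, 4 and 5 were the common ones. Among transcripts that span the region, exon 1 was in 74.3% and 75.9% of the TPM, exon 4 (369 bases) in 76.6% and 74.5% and exon 5 (123 bases) in 78.8% and 74.5%. Exon 3 (228 bases) was in 24.2% and 27.0%. Exon 2, with the stop codon, was in 5.76% and 9.06%, and Syt7-209, a transcript annotated for nonsense-mediated decay, held all of it in the first quantification. Transcripts with none of the 5 exons held 18.0% and 16.5%. The second quantification gave the form without these exons more, 25.3% and 28.1%, and exon 2 7.79% and 11.4%.

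These shares depended on the unit. By expected counts, exon 1 was in 90.8% and 90.9%, exon 4 in 91.7% and 90.7% and exon 5 in 92.5% and 90.7%. Exon 3 was in 11.0% and 12.6%, exon 2 in 2.79% and 4.40%, and the form with none held 6.29% and 5.78%. Syt7-209, which held exon 2, had 250 and 435 expected counts. Syt7-202 alone has a last exon of 4841 bases, against 105 bases in most of the others, and it took 80.5% and 79.4% of the gene's expected counts. All last exons of these forms begin at the same base, and only the 3′ part of the long one is particular to Syt7-202. How much of the other forms it takes or leaves was not tested.

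**Figure D2:**
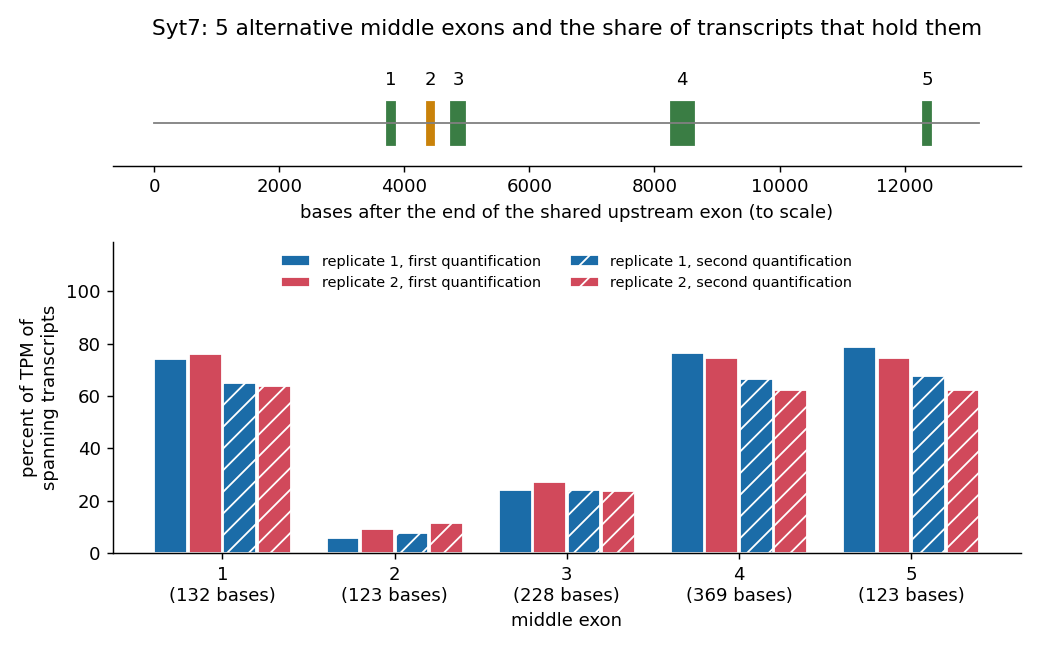
Top, positions of the 5 alternative middle exons of Syt7 along the gene, to scale in bases after the end of the upstream exon, with the exon that holds a stop codon in orange; bottom, percent of the TPM of spanning transcripts that include each exon, by animal and quantification. Exons 1, 4 and 5 lie at 62.4% to 78.8%, exon 3 at 23.9% to 27.0% and exon 2 at 5.76% to 11.4%.

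The remaining members had a single leading form. Syt4 and Syt13 had 1 annotated transcript each. Syt11-201 held 82.1% and 85.1% of its gene, and Syt11-205, an incomplete model that begins downstream, held 10.8% and 9.89%. Syt5-201 held 78.8% and 79.3%, and the incomplete Syt5-202, of 397 bases, held 19.8% and 18.9% of the TPM but 4.31% and 4.10% of the counts.

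By TPM of the first quantification, Syt3, Syt17 and Syt12 were less steady between the animals. Syt3-202 held 60.3% and 78.7%, and Syt3-201, with the same coding sequence, held 19.1% in replicate 1 and 1.11% in replicate 2. The second quantification did not show this difference for Syt3-202, at 50.2% and 48.5%, and gave Syt3-201 3.68% and 0%. The shorter Syt3-204 held 10.6% and 3.42% and Syt3-206 held 9.97% and 4.84%. Syt3-203 was listed at 0% and 4.24%, against 10.9% and 8.41% in the second quantification. Syt17-201 held 78.8% and 69.1%, Syt17-202 held 12.9% and 22.3% and Syt17-203 held 1.78% and 7.54%. In the second quantification Syt17-201 moved the other way, at 56.5% and 66.2%, whereas Syt17-202 was at 12.4% and 22.0%. Syt17-205, of 362 bases, was listed at 0% in both animals, and at 19.9% and 0% in the second quantification. Syt12-201 held 83.6% and 96.8%, and the noncoding Syt12-202, of 355 bases, held 12.9% from 10.9 expected counts in replicate 1 and 0% in replicate 2. Syt3, Syt17 and Syt12 were also the members with the fewest reads, between 982 and 1158 expected counts per animal. Syt2 had more, 2389 and 2719, and its leading transcript was also unsteady by TPM, at 69.5% and 53.0%. By expected counts, Syt12-201 held 96.5% and 98.1% of its gene, and by TPM of the second quantification 42.8% and 95.4%.

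The leading transcript was the same in both animals for 10 of 10 members by TPM, though Syt4 and Syt13, with 1 annotated transcript each, could not differ. Among 11971 genes with more than 1 transcript it differed in 14%, and 8 of the members have more than 1 transcript. By the second quantification it was the same for 9 of 10, against a difference in 19.6% of those genes. The exception was Syt12, led in replicate 1 by Syt12-202 with 55.2% of the TPM from 46.7 estimated counts. For so few genes, both results are near the shares of all genes and mark no trait of the members.

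**Figure D3:**
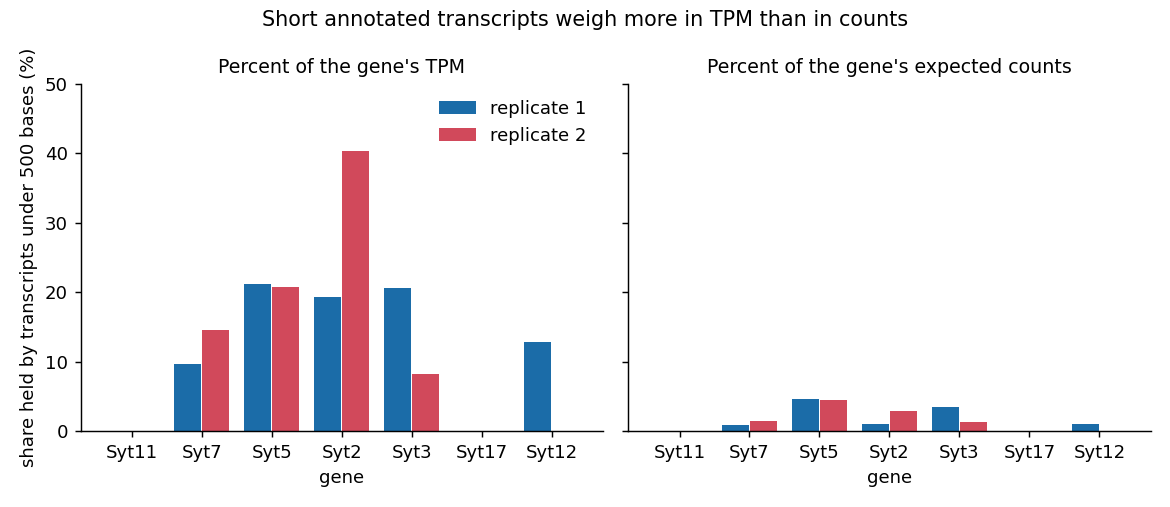
Percent of each gene's TPM (left) and of its expected counts (right) held by annotated transcripts under 500 bases, by animal, for the 7 members that have such transcripts. The shares of TPM reach 40.3% (Syt2, replicate 2), whereas no share of counts exceeds 4.65%.

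Between the animals the synaptotagmins were compared in counts scaled for library size. Of the 10 members, 0 differed by at least 25% (the higher animal over the lower), against 13% of 14163 genes. For 10 genes, 0 is near that share and marks no trait of the members. On the log2 scale, replicate 1 over replicate 2, the members had a median of 0.0002 and all genes one of 0.0008. In replicate 1, 5 of 10 members and 50.2% of all genes were higher. With scaling by the spike-ins these were 7 of 10 and 68.2%, and by deposited TPM 3 of 10 and 39.3%. With 2 animals of 1 group there was no test. All 14163 genes, the 10 members among them, had a mean of at least 50 normalised counts. The members had at least 982 expected counts in each animal, so counting error was smaller for them than for genes near that filter. The part of counting error in the 13% was not tested.

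Syt4 stood farthest from equal, at 5394 and 5185 expected counts from libraries of 24688669 and 27440152. Its ratio was 1.17-fold higher in replicate 1, or 0.22 on the log2 scale, with an exact 95% binomial interval of 0.17 to 0.28 that covers counting error only. Of all genes, 23.2% stood as far from equal or farther. The activity-regulated genes given above were higher in the same animal, and their part in the Syt4 ratio was not tested. Syt5, at -0.08, Syt1, at -0.07, and Syt11, at -0.07, were slightly higher in replicate 2, with intervals below 0, and the other 6 had intervals that included 0. With scaling by the spike-ins Syt5 was at -0.01 and Syt1 at -0.0022, Syt11 was at -2.5e-05, and Syt4 was at 0.30. By ratios of the deposited TPM, 1 of 10 members passed a difference of 25%, against 18.4% of genes. That member was Syt2, 1.37-fold higher in replicate 2, whereas its count ratio was -0.02 on the log2 scale (interval -0.10 to 0.06) and 0.05 with scaling by the spike-ins.

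**Figure D4:**
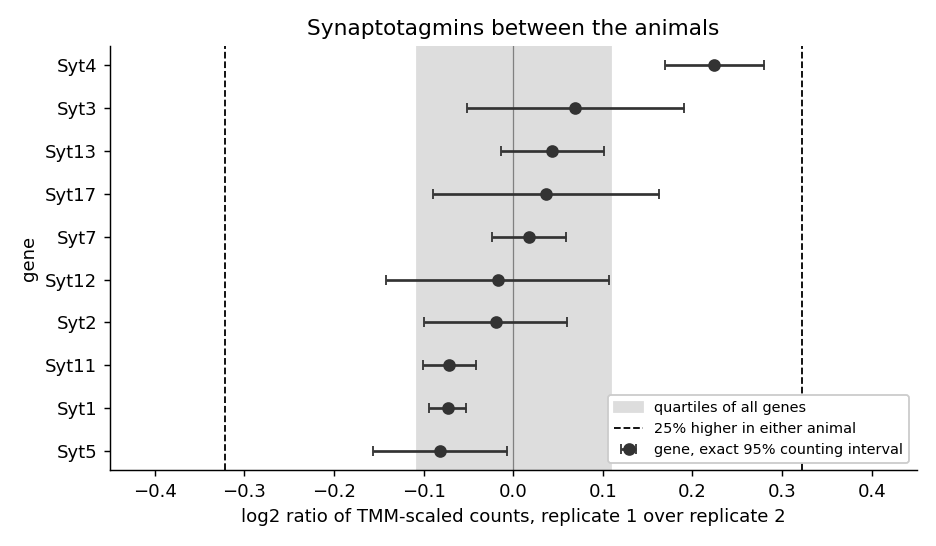
Log2 ratio of scaled counts, replicate 1 over replicate 2, for each synaptotagmin (points) with exact 95% binomial intervals (bars, counting error only), the range between the quartiles of all genes (grey, -0.11 to 0.11) and a level 25% higher in either animal (dashed). Syt4, at 0.22, is the one member outside the grey band, and all 10 lie inside the dashed lines.

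Whether counting used the strand is unknown, so reads of overlapping genes cannot be told apart from those of the members. Exons of Syt4, Syt7 and Syt12 share 566, 384 and 950 bases with a gene on the opposite strand (Gm26658, Gm26859 and A930001C03Rik). Those genes were listed at 0.11 TPM or less in both animals. Syt2 overlaps Ppp1r12b on the opposite strand, with no exon base in common.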

How the data were processed

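Total RNA of left cerebral cortex from 2 mice was sequenced, 1 library each. Per the file headers, the authors deposited gene and transcript tables with expected counts, TPM and FPKM, and each transcript's percent of its gene, on mm10 with GENCODE M21. A second deposited transcript table gives estimated counts and TPM. Programs, versions and whether counting used the strand were not given in the sources used here. Loss of Cast-allele reads against the mm10 reference was not tested.

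TPM was used for levels. Expected counts were rounded, and log2 ratios used TMM scaling (edgeR 4.0.16) with a prior count of 2. Ribosomal RNA genes, spike-ins and entries outside the GENCODE annotation were left out of library sizes. Mitochondrial tRNA genes of that annotation were not left out. Genes averaging 50 normalised counts or more entered the comparison of the animals. The ratio calculation was tested on simulated data. Coding sequences from the GENCODE M21 transcripts were translated and aligned with MAFFT 7.526. Alternatives included DESeq2 1.42.0 size factors, spike-in scaling, FPKM, other filters and the second quantification. Calculations ran in Python 3.11.15 (numpy 2.4.6, scipy 1.17.1, pandas 2.3.3) and R 4.3.3.

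All members are named, with each transcript that held at least 10% of its gene in either animal or quantification, and the 3 highest and the lowest gene of the lists of other synaptotagmins, C2 relatives and partners. Marker lists are given as summed TPM. The members and lists were chosen with earlier results of these data known.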

Additional observations from a re-analysis of the deposited data

How the results depend on the processing

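The size of the levels depended on what shares the TPM total. The summed TPM of the 10 synaptotagmins was 1266 as deposited, 1372 by the second quantification, 2534 when TPM was rescaled over protein-coding genes, and 2431 when the second quantification was rescaled in that way, a setting chosen after seeing the data. By FPKM the sum was 815. In single animals it was 1230 and 1302. The mean Syt1 share of the sum was 40.7% as deposited and 40.8% by the second quantification. The SD of that share over the animals was 0.443 as deposited and 1.505 by the second quantification. FPKM and rescaling multiply all genes of a library by the same factor, so they could not change the share and did not test it. By expected counts, the Syt1 share was higher than by deposited TPM in both animals. The second quantification separated 4 neighbouring pairs in the order of levels in place of 7. Leaving out transcripts under 500 bases, also chosen after seeing the data, gave 7. By the deposited TPM, 1 member in place of 0 differed by at least 25% between the animals, and the members' median log2 ratio was -0.0757. With ERCC scaling it was 0.0712, where all genes had a median of 0.0717. DESeq2 size factors, a prior count of 0.5, no filter on low counts and the second quantification's counts left 0 members past that difference. No paired analysis was possible because there is 1 group. The transcript shares of Syt3, Syt12 and Syt17 rest on 982 to 1158 expected counts per animal, and the part of depth in their spread was not tested.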

Other observations

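The listed relatives with C2 domains summed to less than the synaptotagmins, and the list does not hold all other genes with such domains. The 14 relatives measured (rabphilin, Doc2, synaptotagmin-like, extended synaptotagmin and MCTP genes) summed to 303 and 311 TPM, and 10 of them reached 1 TPM in both animals. Rph3a, a vesicle protein that binds Rab3, led at 149 and 140 TPM, above Syt5, Syt4 and Syt13 and in the range of Syt7. Sytl2 followed at 35.1 and 42.5 TPM and Mctp1 at 34.4 and 36.3 TPM, and Sytl3 was lowest at 0.29 and 0.50 TPM.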
